A study of Mus musculus with 9 samples.

Results

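Rab23 and 9 core genes of the hedgehog pathway were followed in the colon of 9 wild-type mice. The 10 genes were listed by symbol, namely the ligands Shh and Ihh, the receptors Ptch1 and Smo, the transcription factors Gli1, Gli2 and Gli3, the inhibitors Hhip and Sufu, and the regulator Rab23. They were found through the Ensembl identifiers of the count files among 22262 genes with a count in any mouse, and all 10 had counts. Rab23 was listed because its values in these mice were already known to differ between the housing conditions, so its difference is described without a test. The other 9 genes were listed for their place in the pathway, though earlier results of these data were known when the list was made.

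All mice were female, 12 months old, of the C57BL/6N strain and without the transgene that other animals of the study carried. From weaning, 4 mice lived in the standard environment (WT_SE, mice 1, 2, 3 and 5), with 3 to 4 mice per cage, and 5 mice lived in the enriched environment (WT_EE, mice 1 to 5), with 8 mice sharing a larger furnished cage. The labels call the latter housing enhanced and do not give the cage of each mouse, so WT_EE mice may have shared a cage. RNA came from the upper colon, and each mouse gave 1 library of 3′ messenger RNA tags with unique molecular identifiers, random tags that let copies of a molecule be counted once.

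Hedgehog ligands are secreted proteins, and in the intestine they are made by the epithelium and received by the underlying mesenchyme, where they help to maintain smooth muscle and stromal cells. Without ligand, the receptor Ptch1 holds the membrane protein Smo inactive, and when ligand binds Ptch1, Smo enters the primary cilium and the Gli transcription factors switch on target genes, among them Gli1, Ptch1 and Hhip themselves. Rab23 is a small GTPase of the Rab family of membrane traffic regulators, known from mouse embryos as an inhibitor of hedgehog signalling that acts inside the receiving cell, downstream of Smo.

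The promoters of Rab23 and of Ihh, the more highly counted ligand, are shown as the start of the gene the results turn on and of the pathway's input. Both are the 250 bases before a RefSeq transcript start on GRCm38.p6, at chr1:33719646-33719895 on the plus strand for Rab23 and at chr1:74951673-74951922 on the minus strand for Ihh. Capitals mark the GC box, GGGCGG or CCGCCC on the other strand.
Rab23: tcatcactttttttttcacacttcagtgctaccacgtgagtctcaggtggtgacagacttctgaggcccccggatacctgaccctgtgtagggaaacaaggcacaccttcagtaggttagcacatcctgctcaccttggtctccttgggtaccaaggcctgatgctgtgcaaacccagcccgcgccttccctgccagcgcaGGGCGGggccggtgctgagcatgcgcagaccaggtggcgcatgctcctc
Ihh: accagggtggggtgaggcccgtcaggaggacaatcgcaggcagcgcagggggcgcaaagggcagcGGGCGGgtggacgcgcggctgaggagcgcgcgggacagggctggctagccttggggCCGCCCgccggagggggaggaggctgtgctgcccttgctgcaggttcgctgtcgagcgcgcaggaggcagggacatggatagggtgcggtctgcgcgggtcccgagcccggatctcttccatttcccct
The table of promoters held 9 windows of 8 members, with 2 windows for Rab23, and Shh and Gli1 were not matched. The GC box was in 8 of the 9 windows, the exception being Smo, and in 35.7% of all 32851 promoters searched. The Gli recognition sequence GACCACCCA, or TGGGTGGTC on the other strand, was in 0 of the 9 windows and in 0.253% of all promoters. Its shorter core CCACCCA, or TGGGTGG, which the longer sequence contains, was in 0 of the 9 windows and in 9.3% of all promoters.

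Library totals ranged from 299062 to 383401 counts in WT_SE and from 295535 to 454043 in WT_EE, and 3 counts, taken as the limit of a detectable level, equalled 6.61 to 10.15 CPM (counts scaled to a common library total). Levels are given as CPM after TMM scaling, a correction for library composition, as mean ± SD over mice. Counting intervals and this limit cover counting error only. Genes that reached 4 CPM in 1 or more libraries entered the test, 17441 in all, and each of the 10 members did. As background for the members, edgeR's quasi-likelihood test gave an unadjusted p-value under 0.05 for 1334 genes (7.65%), 4.31% higher and 3.34% lower in WT_EE, and an adjusted p-value under 0.05 for 7 genes (0.0401%), a count that ranged from 0 without WT_SE mouse 3 to 48 without WT_EE mouse 1. The library names of WT_SE mice 1 and 3 have another ending (L3) than those of the other 7 mice (L2), and as no WT_EE library has that ending, results are also given without both mice where they changed. Counts of Slc10a2, the bile acid transporter of the distal small bowel, stood apart within each environment, at 103 to 117 in WT_SE mice 2 and 3 and WT_EE mice 1 and 3 and at 3 to 26 in the other 5 mice.

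Rab23 was the member whose level differed most between the environments. It had 3, 7, 3 and 5 counts in WT_SE mice 1, 2, 3 and 5, and 17, 19, 13, 24 and 22 counts in WT_EE mice 1 to 5. Every WT_EE mouse lay above every WT_SE mouse, and WT_SE mice 1 and 3 were at the limit of 3 counts. After scaling, the levels were 7.83, 19.5, 10.1 and 13.7 CPM in WT_SE and 36.7, 66.2, 28.4, 74.2 and 50.9 CPM in WT_EE. The WT_EE mice were themselves spread widely, with mice 2 and 4 highest and mice 1 and 3 lowest. WT_SE averaged 12.8 ± 5.08 CPM (SD, n = 4), WT_EE 51.3 ± 19.3 CPM (SD, n = 5), a 3.79-fold higher level, or 1.92 on the log2 scale (SE 0.37). Groups that did not overlap, with WT_EE higher, were seen for 1.38% of all genes tested (2.58% in either direction, 1.2% with WT_EE lower), and nothing is read from this share since Rab23 was chosen on these values. Without both libraries of the L3 ending the log2 difference was 1.57. In whole tissue, a change in the share of the cells that make a transcript and a change in the transcript per cell cannot be told apart, here and for every gene that follows.

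**Figure D1:**
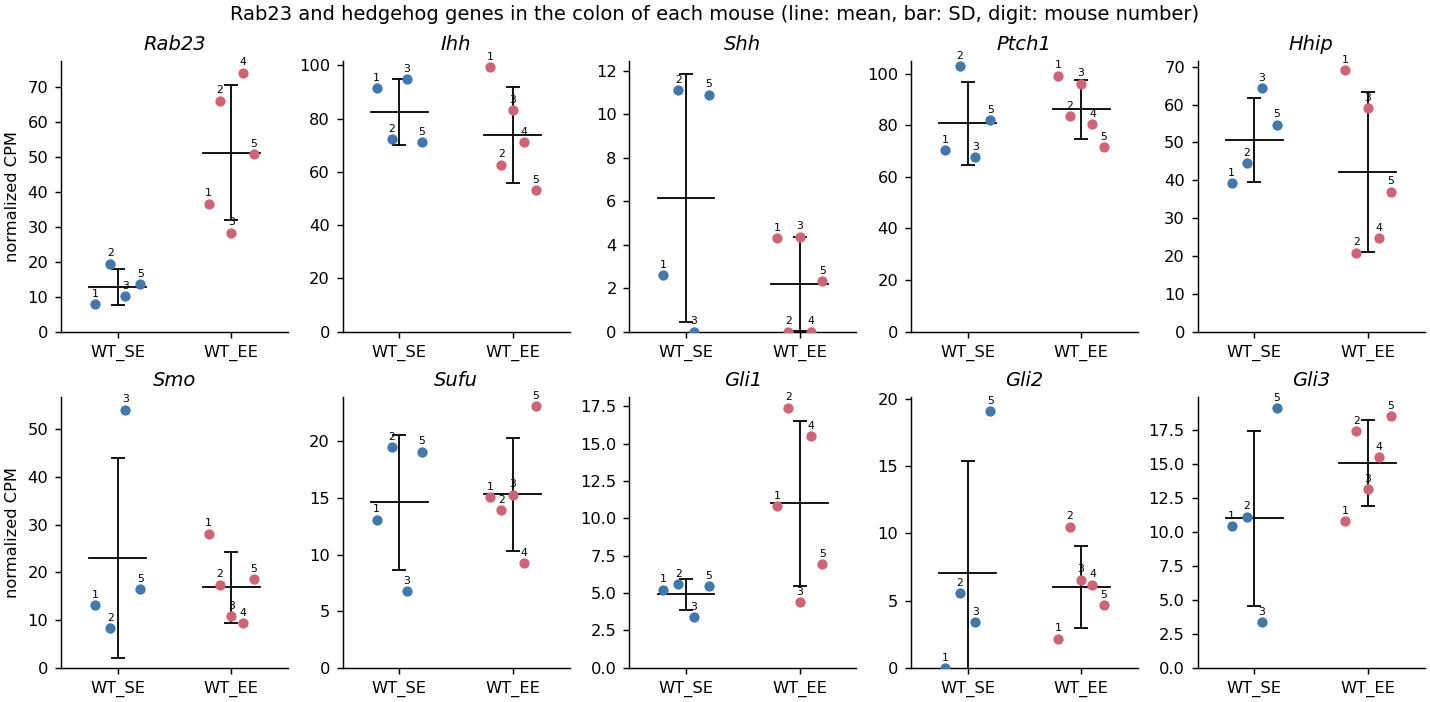
Normalized CPM (vertical axes, each from 0) of the 10 genes in WT_SE (blue, 4 mice) and WT_EE (red, 5 mice), with a point for each mouse, its number, the mean (line) and the SD (bar). Only for Rab23 do the groups not overlap, with WT_SE at 7.83 to 19.5 CPM and WT_EE at 28.4 to 74.2 CPM.

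None of the other 9 members passed. By edgeR's quasi-likelihood test, 0 of 9 had an unadjusted p-value under 0.05, against 7.65% of all genes (4.31% higher, 3.34% lower), and 0 of 9 had an adjusted p-value under 0.05 after correction over the whole table. DESeq2 and limma-voom also called 0 of 9. Their median log2 fold change was -0.13, beside 0.01 over all genes tested, and in 0 of the 9 did the groups lie apart, against 2.58% of all genes.

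The ligands were counted at very different levels. Ihh, the main hedgehog ligand of the differentiated colonic epithelium, had 35, 26, 28 and 26 counts in WT_SE and 46, 18, 38, 23 and 23 in WT_EE. The groups overlapped over most of their range, and WT_EE mouse 1 was the highest of all. WT_SE averaged 82.4 ± 12.4 CPM (SD, n = 4), WT_EE 73.9 ± 18.0 CPM (SD, n = 5), and the log2 fold change of -0.13 had a 95% interval of -0.57 to 0.30 (adjusted p = 0.925 from edgeR's Benjamini-Hochberg corrected fit). A change in either direction as large as that seen for Rab23 lies outside this interval.

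Shh, the ligand that marks the base of the crypts, was close to absent from these libraries. It had 1, 4, 0 and 4 counts in WT_SE and 2, 0, 2, 0 and 1 in WT_EE, so that 2 of the 9 mice, both WT_SE, were above 3 counts. Ihh exceeded Shh in 9 of 9 mice. Over each environment's libraries together, 9 counts in WT_SE and 5 in WT_EE gave a ratio of 0.397 (95% exact counting interval 0.105 to 1.32). The log2 fold change was -1.24 (SE 0.88, adjusted p = 0.765 from edgeR's Benjamini-Hochberg corrected fit), and a difference was not detectable at this depth. Without both L3 libraries, in which Shh had 1 and 0 counts, the log2 value was -1.99 with an unadjusted p of 0.0363 by edgeR's quasi-likelihood test. Transcripts on the other strand, 9530036O11Rik with 32 counts over the 9 mice and Gm26894 with 10, overlap Shh. As it is not given whether strand was used in counting, the counts of Shh are also uncertain.

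The receptor Ptch1, which is also a target of the pathway and is often read as its output, had the highest median level of the 10 genes. Its counts were 27, 37, 20 and 30 in WT_SE and 46, 24, 44, 26 and 31 in WT_EE. The groups overlapped, with WT_SE mouse 2 highest after scaling at 103 CPM. WT_SE averaged 80.8 ± 16.1 CPM (SD, n = 4), WT_EE 86.3 ± 11.4 CPM (SD, n = 5), and the log2 fold change was 0.10 (95% interval -0.31 to 0.50, adjusted p = 0.948 from edgeR's Benjamini-Hochberg corrected fit). A transcript on the same strand, A930032L01Rik, overlaps Ptch1, with 3 counts over the 9 mice.

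Smo, the membrane protein that carries the signal inward, had 5, 3, 16 and 6 counts in WT_SE and 13, 5, 5, 3 and 8 in WT_EE. WT_SE mouse 3 stood above all others at 54.1 CPM, against 8.35 to 28.1 CPM in the other 8 mice. The log2 fold change of -0.34 (SE 0.46, adjusted p = 0.915 from edgeR's Benjamini-Hochberg corrected fit) became 0.44 without that mouse, so no direction is given for Smo. The pseudogene Gm13717 overlaps Smo on the same strand, with 4 counts over the 9 mice.

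The Gli factors were near the limit of detection. Gli1, the transcriptional activator that is itself switched on by the pathway, had 2, 2, 1 and 2 counts in WT_SE and 5, 5, 2, 5 and 3 in WT_EE. No WT_SE mouse and 3 WT_EE mice were above 3 counts, and WT_EE mouse 3 lay within the WT_SE range. The pooled counts, 7 and 20, gave a ratio of 2.04 with a 95% exact counting interval of 0.83 to 5.72. The log2 fold change was 1.01 (95% interval -0.28 to 2.30, adjusted p = 0.742 from edgeR's Benjamini-Hochberg corrected fit), and an exact permutation test over mice (two-sided) gave p = 0.0635, where 0.0159 is the smallest value that 4 against 5 mice allow. The gene Arhgap9 overlaps Gli1 on the other strand, with 33 counts over the 9 mice.

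Gli2, the main activator at the start of the response, had 0, 2, 1 and 7 counts in WT_SE and 1, 3, 3, 2 and 2 in WT_EE. Its highest level was in a WT_SE mouse, and the pooled counts of 10 and 11 gave a ratio of 0.787 (95% exact counting interval 0.303 to 2.07). Without that mouse, WT_SE mouse 5, the log2 fold change turned from -0.31 to 0.90, and without both L3 libraries it was -1.08, so no direction is given.

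Gli3, which acts mostly as a repressor when ligand is absent, had 4, 4, 1 and 7 counts in WT_SE and 5, 5, 6, 5 and 8 in WT_EE. The WT_EE mice were close together at 15.1 ± 3.15 CPM (SD, n = 5) and lay within the WT_SE range of 3.38 to 19.1 CPM. The log2 fold change was 0.38 (SE 0.48, adjusted p = 0.911 from edgeR's Benjamini-Hochberg corrected fit) and -0.02 without both L3 libraries. Its counts are uncertain in the same way, since Gm6556 overlaps it on the other strand with 28 counts over the 9 mice.

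Of the inhibitors, Hhip, a membrane protein that binds and holds back ligand and is a target of the pathway, had 15, 16, 19 and 20 counts in WT_SE and 32, 6, 27, 8 and 16 in WT_EE. The WT_SE mice were close together, whereas in WT_EE mice 1 and 3 were high and mice 2 and 4 low. WT_SE averaged 50.7 ± 11.1 CPM (SD, n = 4), WT_EE 42.2 ± 21.2 CPM (SD, n = 5), with a log2 fold change of -0.18 (95% interval -0.77 to 0.41, adjusted p = 0.925 from edgeR's Benjamini-Hochberg corrected fit).

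Sufu, which holds Gli proteins in the cytoplasm, had 5, 7, 2 and 7 counts in WT_SE and 7, 4, 7, 3 and 10 in WT_EE. The means of 14.6 ± 6.01 CPM (SD, n = 4) and 15.4 ± 4.99 CPM (SD, n = 5) differed by less than their spread. Its log2 fold change was 0.07 (SE 0.44, adjusted p = 0.982 from edgeR's Benjamini-Hochberg corrected fit), and it fell on either side of 0 as mice were left out.

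**Figure D2:**
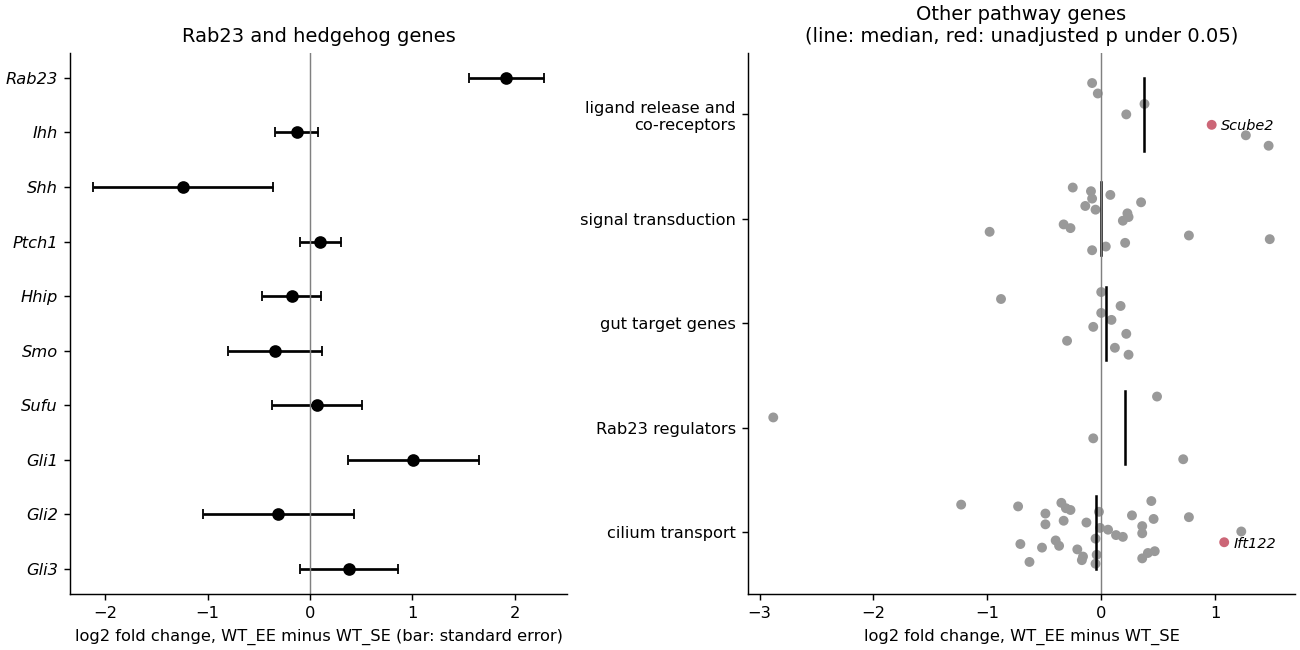
Left, log2 fold change of WT_EE against WT_SE with its standard error for Rab23 (1.92) and the other 9 genes, whose values lie from -1.24 to 1.01. Right, the same for the tested genes of 5 lists of other pathway genes (a point each), with the median of each list as a line and genes with an unadjusted p-value under 0.05 in red, which are Scube2 and Ift122.

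Ordered by median CPM over the 9 mice, which for tags at the transcript's end needs no correction for length, the members ran Ptch1, Ihh, Hhip, Rab23, Smo, Sufu, Gli3, Gli1, Gli2 and Shh. Of neighbours in this order, only Ihh and Hhip kept their order in 9 of 9 mice. Ptch1 exceeded Ihh in 6 of 9 mice, and the order of the low genes from Smo to Shh held in 3 to 6 of 9. The place of Rab23 differed with the housing, which restates the difference it was chosen for and is not a separate result. Hhip exceeded Rab23 in 4 of 4 WT_SE mice and in 2 of 5 WT_EE mice, and Rab23 exceeded Smo in 1 of 4 WT_SE mice and in 5 of 5 WT_EE mice.

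Several members varied inside WT_EE along the same line as Slc10a2, which was noticed after the values were seen and is described without a test. WT_EE mice 1 and 3, with 107 and 117 counts of Slc10a2, had 36.7 and 28.4 CPM of Rab23, whereas mice 2, 4 and 5, with 3, 4 and 10 counts of Slc10a2, had 66.2, 74.2 and 50.9 CPM. The same mice 1 and 3 had the higher Hhip, 69.1 and 59.0 CPM against 20.9, 24.7 and 37.0 CPM, and the higher Ihh, 99.3 and 83.1 CPM against 62.7, 71.1 and 53.2 CPM. Ptch1 was split the same way, at 99.3 and 96.2 CPM against 83.7, 80.4 and 71.7 CPM. Thus within WT_EE, Rab23 was low where Hhip, Ihh and Ptch1 were high. In WT_SE the split by Slc10a2 was not matched by any of these genes. Hhip was 44.6 and 64.3 CPM in mice 2 and 3 and 39.2 and 54.7 CPM in mice 1 and 5. Rab23 was 19.5 and 10.1 CPM against 7.83 and 13.7 CPM in the same mice, and Ihh 72.4 and 94.7 CPM against 91.4 and 71.1 CPM. Ptch1 was 103 and 67.6 CPM against 70.5 and 82.0 CPM. The log2 difference of Rab23 with the Slc10a2 level as a covariate was 1.63, and the part of the Slc10a2 split in it was not tested.

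**Figure D3:**
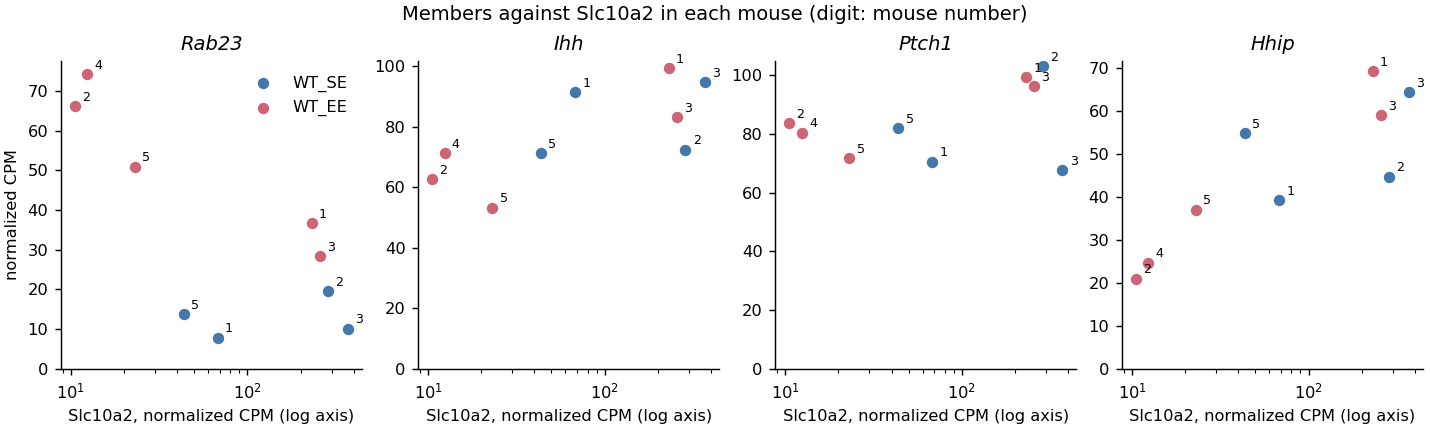
Normalized CPM of Rab23, Ihh, Ptch1 and Hhip (vertical axes, from 0) against that of Slc10a2 (horizontal log axis) in each of 4 WT_SE (blue) and 5 WT_EE (red) mice, with mouse numbers. WT_EE mice 1 and 3, at 231 and 256 CPM of Slc10a2, have the lower Rab23 and the higher Hhip, Ihh and Ptch1 of their group.

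Cell type markers moved with the groups in part. Of 9 smooth muscle markers, 4 (Acta2, Des, Smtn and Lmod1, or 44.4%) had an unadjusted p-value under 0.05 and were higher in WT_EE, beside 4.31% of all genes, 0 passed adjustment in edgeR's quasi-likelihood test, and their median log2 fold change was 0.36. The exact permutation test over mice (two-sided) gave p = 0.302 for Acta2 and p = 0.238 for Des. The summed level of the 9 markers was 2120 to 2730 CPM in WT_SE and 2090 to 3820 CPM in WT_EE. It was highest in WT_EE mice 2 and 4 (3820 and 3670 CPM), which were also highest for Rab23 and lowest for Hhip. WT_EE mice 1, 3 and 5, at 2200, 2090 and 2580 CPM, did not exceed the WT_SE range. The lowest sum, 2090 CPM, was in WT_EE mouse 3, which was lowest of its group for Rab23. This was not particular to smooth muscle. WT_EE mice 2 and 4 were also highest of their group for the epithelial (3000 and 3130 CPM) and fibroblast sums (1550 and 1380 CPM). The same held for the neuronal, glia, pacemaker, endothelial, mesothelial and posterior Hox sums, but not for the fat, B-cell and macrophage sums. Their libraries were the smallest of WT_EE, at 295535 and 336967 counts. The summed level of 4 enteric glia markers was 21.9 to 61.3 CPM in WT_SE and 48.6 to 89.7 CPM in WT_EE. All 4 had a positive log2 fold change, from 0.36 to 0.84 with a median of 0.77. Of these, 1 was higher in WT_EE at an unadjusted p-value under 0.05 by edgeR's quasi-likelihood test, beside 4.31% of all genes. The sums of 8 epithelial markers, 2190 to 2740 CPM and 2440 to 3130 CPM, and of 7 fibroblast markers, 1100 to 1290 CPM and 1050 to 1550 CPM, overlapped between the groups, as the smooth muscle and glia sums did. The remaining lists had sums of 172 to 351 CPM in WT_SE and 157 to 369 CPM in WT_EE for enteric neurons, 223 to 301 and 216 to 321 CPM for pacemaker cells, 100 to 164 and 140 to 207 CPM for endothelium, and 44.0 to 60.1 and 32.8 to 75.6 CPM for macrophages. Fat markers were 72.4 to 833 and 116 to 444 CPM, posterior Hox genes 141 to 284 and 99.3 to 289 CPM, mesothelial markers 0 to 23.5 and 2.16 to 15.5 CPM, and B-cell markers 0 to 26.1 and 0 to 4.63 CPM, with Hoxd12 and the B-cell marker Cd79a at 0 in every mouse. Single markers of these lists also had an unadjusted p-value under 0.05 by edgeR's quasi-likelihood test, beside 7.65% of all genes. Among those higher in WT_EE were Lgals4 of 8 epithelial markers (log2 fold change 0.31), Ret of 6 neuronal (1.16) and Kdr of 3 endothelial markers (0.41). Lower in WT_EE were Hoxd11 of 4 tested posterior Hox genes (-0.97), Upk3b of 2 tested mesothelial markers (-2.97), Ms4a1 of 2 tested B-cell markers (-2.02) and Plin1 of 6 fat markers (-1.80), and 0 of the markers in any list passed adjustment. The part of these markers in the difference of Rab23 was not tested.

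The wider pathway was read from 5 lists by role with 80 genes, of which 79 had a count and 75 were tested. Of these 75, 2 were higher in WT_EE at an unadjusted p-value under 0.05 and 0 were lower, a share of 2.67% beside 7.65% of all genes, and 0 passed adjustment in edgeR's quasi-likelihood test. Their median log2 fold change was -0.01. The count of 2 became 0 with the DESeq2 Wald test and 4 with limma-voom, of which 3 were higher in WT_EE. It was 0 when either WT_SE mouse 2 or WT_EE mouse 3 was left out, and 1 without WT_SE mouse 3 or WT_EE mouse 5. It was 4 without WT_EE mouse 4, 5 without WT_EE mouse 1 and 6 without WT_SE mouse 5. In each of these last settings 3 of the genes called were higher in WT_EE and the rest lower.

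Among 10 genes of ligand release and co-reception, 7 were tested and 1 was higher in WT_EE. This was Scube2, a secreted protein that helps to free lipid-bearing ligand from the producing cell. It had 4, 4, 1 and 7 counts in WT_SE and 6, 8, 11, 7 and 12 in WT_EE. The groups overlapped only through WT_SE mouse 5. The log2 fold change was 0.97 (SE 0.44, unadjusted p = 0.0342, adjusted p = 0.593 from edgeR's Benjamini-Hochberg corrected fit), and it was 0.57 with an unadjusted p of 0.254 without both L3 libraries. The unadjusted p lay between 0.0526 and 0.105 when WT_SE mouse 1, 2 or 3 or WT_EE mouse 2, 3 or 5 was left out. The most highly counted co-receptors were Boc, with 24 to 53 counts in WT_SE mice and 24 to 56 in WT_EE mice, and Gas1, with 12 to 18 and 15 to 25. The third ligand, Dhh, had 0 or 1 count in every mouse.

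Of 18 tested genes of signal transduction, 0 passed at the unadjusted limit by edgeR's quasi-likelihood test, and their median was -0.01 on the log2 scale. The most highly counted were kinases that phosphorylate Gli proteins among many other substrates, Csnk1a1 with 103 to 124 counts in WT_SE mice and 101 to 121 in WT_EE mice, and Gsk3b with 93 to 108 and 94 to 112. All 10 genes listed as targets of hedgehog signalling in the gut were tested, 0 passed at the unadjusted limit in that test, and their log2 fold changes lay from -0.88 to 0.24 with a median of 0.05. They included the cell cycle genes Ccnd1, with 79 to 103 counts in WT_SE mice and 75 to 117 in WT_EE mice, and Ccnd2, with 104 to 136 and 127 to 159. These target genes thus gave no call at the depth of these libraries, as Ptch1, Hhip and Gli1 gave none.

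Of 36 tested genes of transport in the primary cilium, where Smo and the Gli proteins move, 1 passed at the unadjusted limit. Ift122, a part of the complex that carries proteins back from the tip and, like Rab23, known from mouse embryos as a limit on hedgehog signalling, had 8, 3, 1 and 2 counts in WT_SE and 7, 3, 14, 8 and 10 in WT_EE. The groups overlapped, and most counts in WT_SE came from mouse 1. Its log2 fold change was 1.08 (SE 0.48, unadjusted p = 0.0316, adjusted p = 0.580 from edgeR's Benjamini-Hochberg corrected fit). Without WT_SE mouse 2, 3 or 5 or WT_EE mouse 3, its unadjusted p lay between 0.0598 and 0.0990. Without WT_SE mouse 1 the log2 value rose to 1.80 (unadjusted p = 0.00332), and without both L3 libraries it was 1.59 (unadjusted p = 0.0153), by the same edgeR test. Ift20 and Kif3b, the most highly counted of the list, had 77 to 109 and 45 to 66 counts in WT_SE and 84 to 119 and 51 to 79 in WT_EE.

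The listed regulators of Rab23 were Intu, Fuz, Wdpcp and Rsg1, of the group of proteins that help to set up cilia, and Evi5l, which stimulates the GTPase activity of Rab23. Rsg1 had no count, and 0 of the other 4 passed at the unadjusted limit by edgeR's quasi-likelihood test. Fuz ranged over 2 to 9 counts in WT_SE mice and 3 to 8 in WT_EE mice, and Evi5l had 1 to 6 and 3 to 11. At such counts only large differences could have been seen.

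Rab23 was set beside the rest of its family. Of 56 other Rab genes with a count, 51 were tested, and 3 of them (5.88%, beside 7.65% of all genes) were higher in WT_EE at an unadjusted p-value under 0.05, with 0 lower and 0 after adjustment in edgeR's quasi-likelihood test. Their log2 fold changes lay from -0.96 to 0.63 with a median of 0.00. The value of Rab23, 1.92, is given beside them as a description, since Rab23 was chosen for its difference in these mice. Rab28, a ciliary Rab protein, had 19, 27, 8 and 12 counts in WT_SE and 24, 30, 33, 25 and 28 in WT_EE, with a log2 fold change of 0.63 (SE 0.27, adjusted p = 0.534 from edgeR's Benjamini-Hochberg corrected fit).

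Rab32, which acts in traffic to lysosome-related organelles, ranged over 10 to 23 counts in WT_SE mice and 16 to 34 in WT_EE mice (log2 fold change 0.50, SE 0.25), and Rab27a, which acts in secretion, had 23 to 37 and 32 to 58 (log2 fold change 0.38, SE 0.18). Their adjusted p-values were 0.648 and 0.649 from edgeR's Benjamini-Hochberg corrected fit. The calls of Rab28, Rab32 and Rab27a were lost in 7, 13 and 12 of 20 alternative settings. Among these were WT_SE mouse 3 or 5 or WT_EE mouse 2 left out for Rab28 (unadjusted p 0.0698 to 0.0925), WT_SE mouse 1, 2 or 3 or WT_EE mouse 3, 4 or 5 for Rab32 (0.0558 to 0.214), and WT_SE mouse 3 or 5 or WT_EE mouse 1, 2 or 3 for Rab27a (0.0693 to 0.114), all by edgeR's test. Leaving out both L3 libraries lost the calls of Rab28, Rab32 and Rab27a as well (unadjusted p 0.179, 0.0856 and 0.115 by edgeR's test). Without WT_SE mouse 2, the log2 fold change of Rab28 was 0.96 and that of Rab32 was 0.32. The most highly counted Rab genes, Rab14, Rab6a and Rab2a, had 99 to 124, 85 to 122 and 90 to 120 counts over all mice.

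**Figure D4:**
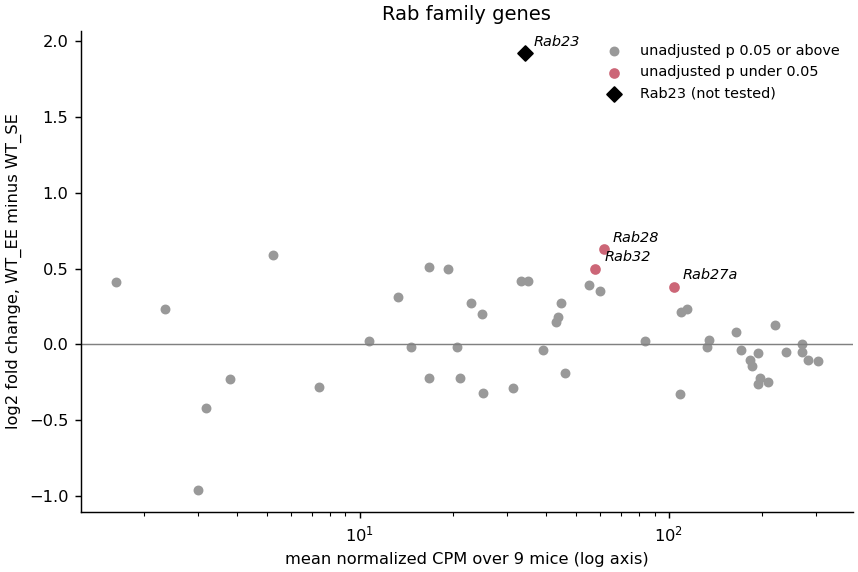
Log2 fold change of WT_EE against WT_SE for tested Rab family genes against their mean normalized CPM over 9 mice (log axis). Rab23 lies at 1.92 and the other 51 genes lie between -0.96 and 0.63, with the 3 that had an unadjusted p-value under 0.05 in red.

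On GRCm38, Rab23 occupies chr1:33719887-33742564 and is read from the plus strand, and no other annotated gene overlaps it. The nearest protein-coding gene downstream is Bag2, which encodes a co-chaperone of Hsp70, on the minus strand from 33745484 to 33757795. The ends of Rab23 and Bag2 face each other across 2919 bases. Upstream, the nearer end of Prim2, the next protein-coding gene, which encodes a subunit of the DNA primase on the minus strand, lies 50091 bases before Rab23.

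Bag2 had 10, 7, 2 and 15 counts in WT_SE and 14, 21, 10, 24 and 27 in WT_EE. WT_EE mice 2, 4 and 5 were above all WT_SE mice, and mice 1 and 3 were within their range. Mice 1 and 3 were also the lowest of WT_EE for Rab23, though there they were above all WT_SE mice. WT_SE averaged 23.3 ± 14.2 CPM (SD, n = 4), WT_EE 52.4 ± 24.7 CPM (SD, n = 5), with a log2 fold change of 1.05 (SE 0.37, unadjusted p = 0.007, adjusted p = 0.394 from edgeR's Benjamini-Hochberg corrected fit). The exact permutation test over mice (two-sided) gave p = 0.0952. Without both L3 libraries the log2 value was 0.73 with an unadjusted p of 0.0949, and with the Slc10a2 level as a covariate it was 0.51 with an unadjusted p of 0.130, by the same edgeR test.

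Prim2, in contrast, had 6, 4, 6 and 6 counts in WT_SE and 3, 6, 5, 4 and 6 in WT_EE, with a log2 fold change of -0.34 (SE 0.46, adjusted p = 0.915 from edgeR's Benjamini-Hochberg corrected fit). Its groups overlapped throughout.

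**Figure D5:**
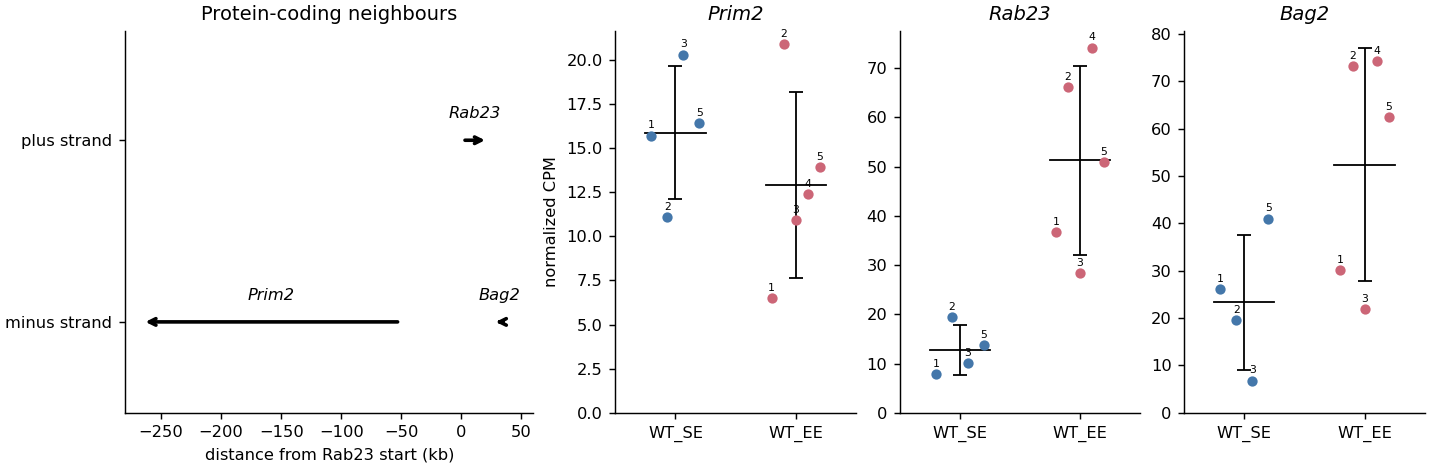
Left, Rab23 and its nearest protein-coding genes by distance from the start of Rab23 (horizontal axis, kb), with arrows in the direction of transcription. Right, normalized CPM of Prim2, Rab23 and Bag2 in each WT_SE (blue) and WT_EE (red) mouse, with mean (line) and SD (bar); WT_EE mice 2, 4 and 5 are the highest of their group for both Rab23 and Bag2.

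The genes whose pattern over the 9 mice was most like that of Rab23 were sought among 8492 genes with a mean of at least 10 counts per library, by Pearson's r of log2 CPM. These values share the same libraries and the same split between environments, and r is a description. The 5 highest were Ak4, a mitochondrial adenylate kinase (r = 0.958), Ptprz1, a receptor phosphatase (r = 0.955), the pseudogene Gm2830 (r = 0.955), Ppp1r12c, a regulatory subunit of a myosin phosphatase (r = 0.940), and Tm4sf1, a membrane protein (r = 0.939). Ak4 had 9, 13, 7 and 12 counts in WT_SE and 22, 22, 29, 28 and 25 in WT_EE. Ptprz1 had 5, 10, 4 and 6 and 13, 14, 12, 18 and 13. Of the other 9 members, only Ptch1, Ihh and Hhip had enough counts to enter this comparison. The value was 0.773 for Bag2 (rank 252), 0.238 for Ptch1, -0.564 for Ihh and -0.607 for Hhip.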

How the data were processed

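Colon RNA of 9 wild-type mice was analysed, 4 kept in standard (WT_SE) and 5 in enriched housing (WT_EE). The authors prepared 3′ tag libraries with unique molecular identifiers, and the deposited files hold whole-number molecule counts per gene without normalization. The submitters' processing notes name fastp 0.20.0, STAR 2.7.0f, featureCounts 1.6.0, Subread and UMI-tools. The genome was GRCm38. Libraries held 295535 to 454043 counts. Symbols and positions came from GENCODE vM21 and matched 22256 of 22262 genes, and promoters came from RefSeq on GRCm38.p6.

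Genes that reached 4 CPM in 1 or more libraries were tested. Counts were TMM-normalized and compared in edgeR 4.0.16 (R 4.3.3) by the quasi-likelihood F test with environment as the only term, and p-values were adjusted over all 17441 genes by the Benjamini-Hochberg method. The common biological coefficient of variation was 15.1%. For single genes, exact permutation tests (two-sided) over mice were added (scipy 1.17.1). Steps were tested on simulated data. Alternatives used DESeq2 1.42.0, limma-voom (limma 3.58.1), other normalizations and filters, covariates, and mice left out. Whether strand was used in counting is not given in the sources used here.

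The members and gene lists were chosen with earlier results of these data known. Genes are named by rule: all members, and per list those with an unadjusted p-value under 0.05 and the 2 most highly counted (3 for Rab genes), the neighbours of Rab23 and the 5 genes most like it. Slc10a2 and the marker lists were added beside them, and other genes were named after their values were seen. Each mouse gave 1 library, so p-values measure the spread between mice. For edgeR's test that spread is estimated in part from all genes together, for the permutation test from the gene's own values. Neither kind of p-value covers differences between cages. As the cage of each mouse is not given, an effect of cage and an effect of environment cannot be told apart.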

Additional observations from a re-analysis of the deposited data

Results flagged for a closer look

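In each environment, the highest and the lowest mouse were compared with the others of their group for the members, the named genes and the marker sums, by the gap to the nearest mouse over the whole range (Dixon's 95% limit). Of 96 groups examined, 4 held a mouse that stood apart, where chance alone gives about 4.8 (1 in 20). Gli1 stood low in WT_SE mouse 3, at 3.38 CPM from 1 count, with the other 3 mice at 5.22 to 5.57 CPM. Fuz stood high in the same mouse, at 30.4 CPM from 9 counts, with the others at 5.47 to 8.35 CPM. Evi5l stood high in WT_EE mouse 5, at 25.5 CPM from 11 counts, with the others at 10.5 to 12.4 CPM. The summed level of 3 macrophage markers stood high in WT_EE mouse 1, at 75.6 CPM, with the others at 32.8 to 37.1 CPM.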

How the results depend on the processing

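The log2 difference of Rab23 stayed between 1.56 and 2.20 in all 20 alternatives, with the lowest value when the library-name ending was a covariate, and leaving out each mouse in turn gave 1.74 to 2.20. The mouse number as a replicate block gave 1.82, 0 members called, 2 pathway genes (1 of them higher in WT_EE) and 1170 genes in all. Mice of the same number are different animals whose deviations correlated at -0.022 to 0.126, so the numbers were not taken as pairs. The number of the other 9 members called stayed at 0 except with the ending as a covariate and without both L3 libraries (1 each, Shh, lower in WT_EE), and 0 to 0 as mice were left out. The edgeR filterByExpr filter left 3 of the 9 to test. The 2 pathway genes called became 4 with no filter (2 higher in WT_EE), and 0 with filterByExpr or DESeq2. They became 4 with limma-voom (3 higher in WT_EE) and 0 to 6 as mice were left out. The 1334 genes called in all became 804 with filterByExpr, 688 with the ending as covariate, 680 without both L3 libraries, 643 with DESeq2 and 899 to 1581 as mice were left out. The 7 genes past adjustment became 143 with no filter, 70 with the replicate block, 0 with filterByExpr, DESeq2, limma-voom, the ending as covariate or without both L3 libraries, and 0 to 48 as mice were left out. Upper quartile scaling turned the balance of directions, with 615 of 1368 calls higher in WT_EE, beside 751 of 1334.

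Some members changed sign. With the ending as covariate and without both L3 libraries, Ihh was at 0.06 and 0.07, Ptch1 at -0.09 and -0.08, Smo at 0.46 and 0.47, Gli3 at -0.03 and -0.02, and Sufu at -0.29 and -0.28. Gli2 was at 0.23 with limma-voom, and Hhip at 0.05 with the Slc10a2 covariate, which was added after seeing the data. As mice were left out, Smo ranged from -0.63 to 0.44, Gli2 from -0.74 to 0.90 and Sufu from -0.12 to 0.23. The cause was not tested for any of these. The call of Scube2 was lost in 10 of 19 alternatives, of Ift122 in 6 of 19 and of Bag2 in 3 of 20. At these depths, members with a few counts per mouse (Shh, Gli1 and Gli2) could show only large differences.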
